A study of Mus musculus with 3 samples.

Results

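The genes of the cytosolic ribosome are described here as they appear in RNA pulled down from hearts with ribosomes tagged in endothelial cells. Members were the protein-coding genes whose symbols start with Rpl or Rps and a digit, together with Rplp0, Rplp1, Rplp2 and Rpsa and without the Rps6k kinases. This rule gave 86 genes of the 14246 protein-coding genes and of the 17583 genes listed in all. Of these, 76 were ribosomal proteins proper, 45 of the large and 31 of the small subunit. The other 10 were paralogues (Rpl22l1, Rpl3l, Rpl7l1, Rpl36al, Rpl39l, Rps27l and Rps27rt), retrocopies typed as protein-coding (Rpl10-ps3 and Rpl9-ps6) and Rps19bp1, which binds Rps19 and is not itself a ribosomal protein.

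The samples came from the hearts of 3 EC-RiboTag mice of genotype Cdh5-CreERT2;Rpl22tm1.1Psam, which form a single group with no input or control library analysed here. Cre is driven by Cdh5, a gene of endothelial cells, and is switched on by tamoxifen. It exchanges the last exon of Rpl22, exon 4, for a copy that adds a hemagglutinin tag, and tagged ribosomes were then pulled down from heart homogenate. The labels place the hearts at day 7 after coronary ligation, whereas the study's RiboTag methods mention no infarction. The labels do not spell out the letters Rz of the sample names. The study abbreviates the remote zone of infarcted hearts as RZ and describes EC-RiboTag RNA from that zone in another experiment, so whether 1 zone or the whole heart was sequenced is not known here. The study's methods give ranges of adult ages for its animals but no age for these 3 mice, and the labels call the 3 libraries biological replicates.

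Cytosolic ribosomes hold a small and a large subunit, each made of ribosomal RNA and many small, basic proteins that are supplied in nearly equal amounts. The messengers of these proteins start with a run of pyrimidines, the TOP motif, through which mTOR and Larp1 control how much of each is translated. Their genes have left large numbers of processed pseudogenes in mammalian genomes, and several host small nucleolar RNAs in their introns.

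The tag sits directly before the stop codon of Rpl22, so the last coding exon of this gene and of its paralogue Rpl22l1 are shown with the stop codon in capitals. Both stretches are 145 bases long in GRCm39 and lie on the plus strand, at chr4:152416737-152416881 and chr3:28861336-28861480.
Rpl22: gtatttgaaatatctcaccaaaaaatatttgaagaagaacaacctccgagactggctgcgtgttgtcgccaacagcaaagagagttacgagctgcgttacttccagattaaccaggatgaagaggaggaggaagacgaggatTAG
Rpl22l1: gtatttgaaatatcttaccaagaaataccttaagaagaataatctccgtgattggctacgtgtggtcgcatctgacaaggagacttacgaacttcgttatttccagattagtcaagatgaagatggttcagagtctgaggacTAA
Across their whole coding sequences the 2 genes shared 66.9% of aligned bases. Gene values do not separate tagged from untagged Rpl22 messenger.

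Reads that matched more than 1 place were removed before counting, so sequence shared with pseudogenes bears on every member. To show such sequence, the 72 bases (the read length) across the exon junction nearest the middle of the coding sequence are given for 2 members, with the downstream exon in capitals. The Rps6 stretch (GRCm39, chr4:86774215-86774418, minus strand) had 1 exact copy elsewhere in the genome, and the Rpl7a stretch (chr2:26802136-26802413, plus strand) had 4.
Rps6: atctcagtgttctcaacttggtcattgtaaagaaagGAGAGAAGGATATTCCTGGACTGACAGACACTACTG
Rpl7a: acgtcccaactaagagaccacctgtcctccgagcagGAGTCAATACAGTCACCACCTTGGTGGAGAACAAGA

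The 3 libraries had implied depths of 6755000 to 7567000 counted reads. All 8 endothelial markers examined were listed, with mean normalized counts between 1004 and 4918.7. All 8 cardiomyocyte markers were listed as well, between 586.7 and 8437.3, and 6 of 6 fibroblast and 5 of 6 leukocyte markers had values. By mean, the cardiomyocyte gene Ttn took place 1 among all protein-coding genes, and Flt1, the highest endothelial marker, place 3. Per base of canonical transcript the median marker stood at 0.711 for endothelial cells and 0.565 for cardiomyocytes. It stood at 0.091 for fibroblasts and 0.028 for leukocytes. Cardiomyocyte messengers were thus abundant in the pulled-down RNA, and the share of cells other than endothelial cells in the ribosomal protein values was not tested. In such bulk samples, fewer cells of a type and less RNA per cell cannot be told apart.

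Together the 86 genes made up a small part of the table. Their summed normalized counts were 27044, 26951 and 25071 in mice 1, 2 and 3, or 0.378%, 0.376% and 0.345% of all values (mean 0.367% ± 0.0188, SD, n = 3). The 77 genes of the mitochondrial ribosome (symbols starting with Mrpl or Mrps) summed to slightly more, 28746, 29157 and 26352. The median member had a mean of 270.5 normalized counts, below the median of 358 over all protein-coding genes, and 63 of the 86 reached a mean of 200.

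Ribosomal protein messengers are short, and a longer messenger yields more fragments at the same number of molecules. The median canonical transcript of the members was 1049 bases long, against 3474 for all protein-coding genes and 1820 for mitochondrial ribosomal protein genes. Per base of canonical transcript, the median member stood at 0.244 normalized counts, against 0.175 for mitochondrial ribosomal protein genes and 0.104 for all protein-coding genes. Annotated length weighs on this scale, of which it is the divisor. Across the 76 core members, level per canonical base and canonical length had a Spearman's rho of -0.65, given as a description. The order of members per canonical base thus partly followed annotated length. Within each mouse the members' median level per base exceeded that of all protein-coding genes by 1.24 ± 0.09 (SD, n = 3) on the log2 scale, and by 0.48 ± 0.10 (SD, n = 3) that of the mitochondrial ribosome. Both differences had the same sign in 3 of 3 mice (exact sign-flip permutation test, two-sided, p = 0.25, the smallest that 3 mice allow). Without division by length both turned around, to -0.40 and -0.47. Per base of coding sequence the members and the mitochondrial ribosome differed by only -0.06, while the members stayed 1.23 above all protein-coding genes.

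Duplicate removal also bears on these levels. Among single-end reads it keeps about 1 read for each start position and strand, which for a short transcript sets a ceiling near 1 count per base. Rpl22 was the only member above 1 per canonical base, and 10 protein-coding genes in all were above it. The part of this step in the members' levels was not tested.

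Rpl22, a protein of the large subunit and the carrier of the tag, had 975, 787 and 823 normalized counts in mice 1, 2 and 3 (861.7 ± 99.8, SD, n = 3). Mouse 1 was the highest, and mice 2 and 3 lay close together. Only Rpl4, Rpl7l1 and Rps3 had higher normalized counts among the members. The gene (ENSMUSG00000028936) spans chr4:152410199-152418528 on the plus strand of GRCm39 in the deposited table. Its GENCODE canonical transcript has 634 bases and 4 exons, and starts upstream of that span. Both annotations gave the same lower gene coordinate for only 19 of the 86 members. On the minus strand that coordinate is the end of the gene, so this count does not compare transcript starts.

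Per base of canonical transcript Rpl22 was the highest member, with 1.54, 1.24 and 1.30 normalized counts per base, and it took place 3 among all protein-coding genes. All 3 values were above the ceiling near 1 count per base, so the level and place of Rpl22 on this scale are uncertain. Its level per base was above the median of the other members in 3 of 3 mice, by 2.48 ± 0.15 (SD, n = 3) on the log2 scale, or 5.57-fold (exact sign-flip permutation test, two-sided, p = 0.25). The size of this difference depended on the length used. It was 1.28 per base of all annotated exons, which for Rpl22 add up to 3870 bases, and 2.03 per base of coding sequence. Per base of all annotated exons Rpl22 took place 11 among the members and place 1107 among all protein-coding genes. Counting only the 72-base windows of the transcript that had no copy elsewhere, the difference was 1.75. On that scale 13 members stood above Rpl22, which took place 14. The levels of Rpl22 and of those 13 members were all above 1 there, beyond the ceiling of duplicate removal, so their order on that scale is uncertain.

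Rpl22l1, the paralogue that can take the place of Rpl22 in the large subunit, had 209, 206 and 188 normalized counts (201 ± 11.4, SD, n = 3). The gene (ENSMUSG00000039221) lies at chr3:28859585-28861573 on the plus strand. Its level per canonical base, 0.360, was 0.57 ± 0.01 (SD, n = 3) above the median of the other members on the log2 scale, in 3 of 3 mice (exact sign-flip permutation test, two-sided, p = 0.25). The position of Rpl22l1 among the members was not stable, because the difference was -0.43 without division by length and 0.0087 per coding base.

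Rpl22 exceeded Rpl22l1 in every mouse and on every scale tried. The difference in level per canonical base was 1.91 ± 0.15 (SD, n = 3) on the log2 scale, or 3.76-fold (exact sign-flip permutation test, two-sided, p = 0.25). It ranged from 1.01 per window without a copy to 2.10 without division by length. Copies elsewhere in the genome covered 48.9% of the windows of Rpl22l1 and 6.39% of those of Rpl22.

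**Figure D1:**
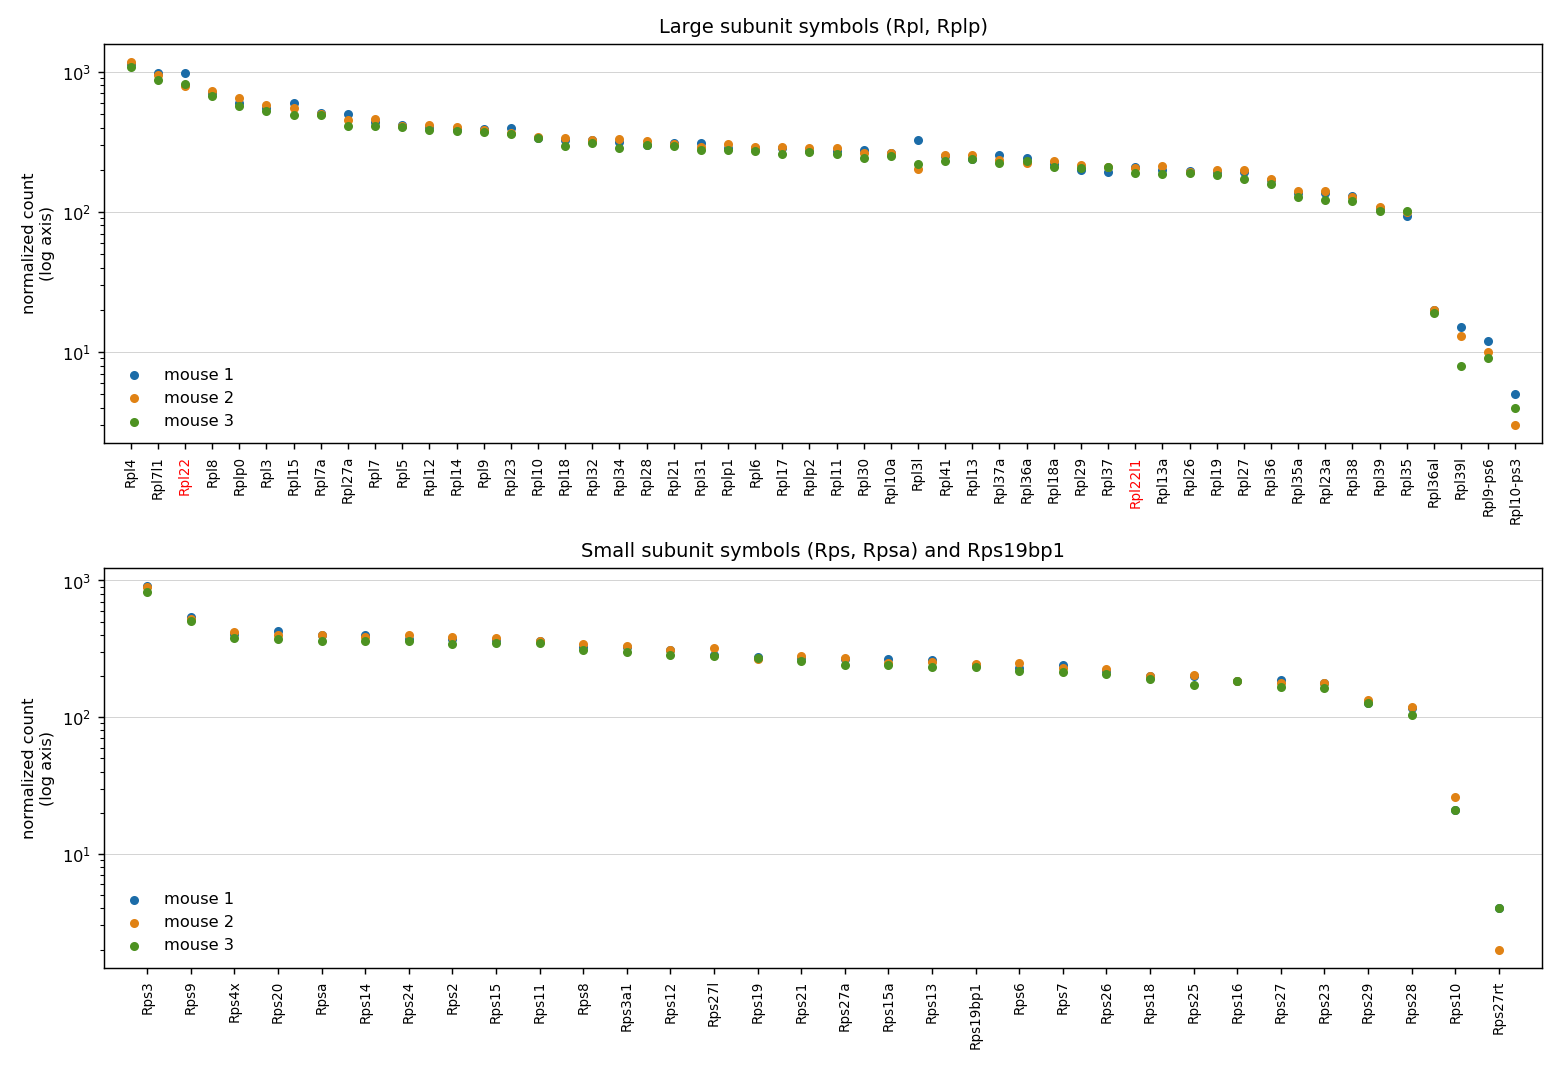
Normalized counts (log axis) of 84 of the 86 members in mice 1, 2 and 3, ordered by mean, with large subunit symbols above and small subunit symbols below, and Rpl22 and Rpl22l1 labelled in red. Points of the 3 mice nearly coincide for most genes, with Rpl22 and Rpl3l set apart by their high value in mouse 1, and 6 genes from Rps10 downward lie below 30.

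In the large subunit, means ran from 98.3 for Rpl35 to 1131 for Rpl4. Rpl4, a protein that lines the exit tunnel, had 1143, 1172 and 1078 normalized counts. Rpl8, another core protein, had 709, 726 and 677, or 0.670 per canonical base. The stalk genes, whose proteins recruit translation factors, were led by Rplp0 with 601, 645 and 566. Rplp1 followed with 284, 303 and 278, and Rplp2 with 271, 288 and 267, so the values of these 2 genes overlapped. Per canonical base the stalk genes stood at 0.442 for Rplp0, 0.527 for Rplp1 and 0.283 for Rplp2.

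Rpl5 and Rpl11 join the large subunit as a particle with the smallest ribosomal RNA and can also hold back Mdm2, the ligase that degrades p53. Rpl5 had 417, 409 and 403 normalized counts and Rpl11 had 272, 286 and 261. In level per canonical base their order was the opposite, 0.112 for Rpl5 and 0.206 for Rpl11, with canonical transcripts of 3646 and 1324 bases. Per coding base they lay closer, at 0.460 and 0.511. Rpl38 and Rpl10a, known for their ties to the translation of particular messengers, had 130, 127 and 120 and 264, 264 and 251 normalized counts.

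In the small subunit, Rps3, which lies where messenger RNA enters the ribosome, was the highest with 904, 899 and 829 normalized counts. Rps15, which reaches toward the decoding centre, had 367, 379 and 350 and took place 4 among the members per canonical base, at 0.670. Rpsa, also known as a laminin receptor, had 399, 400 and 363.

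Rps6, the target of S6 kinases, had 229, 250 and 217 normalized counts. Rps19 and Rps14, both known from inherited or acquired anaemias, had 275, 267 and 273 and 397, 385 and 361. Rps27a, made as a fusion with ubiquitin, had 268, 273 and 240. Small subunit means ran from 22.7 for Rps10 to 877.3 for Rps3. Over the symbols of each subunit, paralogues included, the large subunit median was below the small subunit median per canonical base by -0.36 ± 0.03 on the log2 scale (SD, n = 3, exact sign-flip permutation test, two-sided, p = 0.25). The sign was opposite without division by length and per coding base, at 0.04 in both cases.

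Rps10 was an exception among the small subunit genes. It had 21, 26 and 21 normalized counts, whereas the next lowest core gene of the small subunit, Rps28, had 113 on average. Exons of another gene on the same strand covered 53.6% of its canonical transcript, and copies covered 50.7% of its windows. Only 258 of its 816 windows had neither, and reads that overlap several genes had been left out of the counts. Per such window the level of Rps10 was 0.0879, against a median of 0.492 over the members. The part of the overlapping exons and copies in the low value was not tested.

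Ribosome genes with other names outside the rule were measured too. Fau, which encodes Rps30 fused to a ubiquitin-like protein, had 233, 237 and 222 normalized counts. Rack1, a scaffold on the small subunit, had 986, 998 and 935, or 0.650 per canonical base, with no copied window.

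Paralogues differed widely from their parent genes. Rpl7l1, which takes part in assembly of the large subunit, had 973, 942 and 875 normalized counts and stood above Rpl7 with 438, 462 and 408 in each mouse. Per canonical base the levels were 0.697 for Rpl7l1 and 0.375 for Rpl7, but per window without a copy the order turned, with 0.780 for Rpl7l1 and 0.813 for Rpl7. Copies covered 50.9% of the windows of Rpl7 and 5.62% of those of Rpl7l1.

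Rps27l, a gene under p53 control, had 285, 322 and 280 normalized counts and Rps27 had 187, 177 and 167, so by normalized count the paralogue was the higher in each mouse. The level per canonical base was 0.561 for Rps27l and 0.338 for Rps27. Per window without a copy Rps27 was the higher, with 1.01 against 0.743, and copied windows made up 12.7% and 61.3%. Rps27rt, a retrocopy with a coding sequence identical to that of Rps27 (100% of 252 bases), had 4, 2 and 4.

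Rpl3l replaces Rpl3 in ribosomes of heart and skeletal muscle. It had 328, 201 and 221 normalized counts (250 ± 68.3, SD, n = 3), and Rpl3 had 555, 577 and 527. The gene (ENSMUSG00000002500) lies at chr17:24946794-24955117 on the plus strand, and none of its windows had a copy. Rpl3l was highest in mouse 1, where the summed normalized counts of the 8 cardiomyocyte markers were lowest, at 18576 against 19504 in mouse 2 and 22442 in mouse 3. This sum leaned on Ttn and Ryr2, which had the highest means of the 8 and the longest canonical transcripts, 107543 and 16853 bases. In genes other than the members, values in mouse 3 rose with coding length, as described below. The order of the sums therefore does not show how much cardiomyocyte RNA each library held. The markers did not move together. Ttn (7379, 7743 and 10190) and Ryr2 (3280, 3667 and 4486) were highest in mouse 3, whereas 4 of the 8, namely Mb (761, 731 and 649), Tnni3 (644, 581 and 535), Myl2 (729, 701 and 605) and Actc1 (1046, 998 and 927), had their highest value in mouse 1, as Rpl3l did. These 4 cardiomyocyte markers were lowest in mouse 3, however, whereas Rpl3l was lowest in mouse 2. Over all protein-coding genes 33.1% were highest in mouse 1. Endothelial markers summed to 20055, 18963 and 19216, fibroblast markers to 2315, 2431 and 2860, and leukocyte markers to 430, 640 and 649. In which cells the Rpl3l messenger was bound to tagged ribosomes was not tested.

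Other paralogues and retrocopies were near the floor. Rpl36al had 20, 20 and 19 normalized counts, against 242, 222 and 231 for Rpl36a. Rpl39l, known from testis, had 15, 13 and 8 against a mean of 105.3 for Rpl39. Rpl10-ps3, identical to Rpl10 over its coding sequence, had 5, 3 and 4 against 339, 342 and 339, and Rpl9-ps6, identical over 99.8%, had 12, 10 and 9 against 388, 385 and 369 for Rpl9. A further 53 genes with such symbols were typed as pseudogenes, with a median mean of 4.67 and 52 of them below 50. The exception was Rps4l, with 420, 465 and 409, close to its parent Rps4x with 407, 418 and 381. In these multigene families reads that matched more than 1 place were removed, and other reads may have been assigned to a near-identical copy. Only 28 of the 697 windows of Rpl10-ps3 and 34 of the 303 windows of Rps27rt had no copy elsewhere. Values of parents and copies are uncertain to that extent, and the part of read removal in the low values was not tested.

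Sequence with copies elsewhere was common among the members. At least 1 window of 72 bases had an exact copy elsewhere for 82 of the 86 members (95.3%), compared with 28.6% of protein-coding genes and 49.4% of mitochondrial ribosomal protein genes. In the median member 35.4% of all windows and 81.6% of the windows inside the coding sequence were copied. More than 50% of windows were copied in 28 members (32.6%), against 1.81% of protein-coding genes. The most affected were Rpl10-ps3 with 96.0%, Rpl23a with 93.5%, Rps6 with 92.4% and Rpl36a with 92.3%. Rpl3l, Rpl39l and Rps19bp1 were among the members with no copied window.

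Normalized counts did not follow the copied share closely. Over the 76 core members the correlation across genes of mean and copied share was -0.22 (Spearman's rho, a description, since genes share libraries and lengths), while that of mean and coding length was 0.57. Rpl36a had 231.7 normalized counts on average although 92.3% of its windows were copied, so its level per window without a copy was 7.24, the highest of the members. On that scale 19 members exceeded 1, of 56 protein-coding genes that did so. The correlation of this level with the copied share was 0.67, again across 76 genes, and both quantities hold the number of windows without a copy. Rpl36a had only 32 windows without a copy. Levels above 1 exceed the ceiling near 1 count per position that duplicate removal sets, so this scale overstates the level of such genes. Which other positions held reads, copied windows or exons outside the canonical transcript, was not tested.

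**Figure D2:**
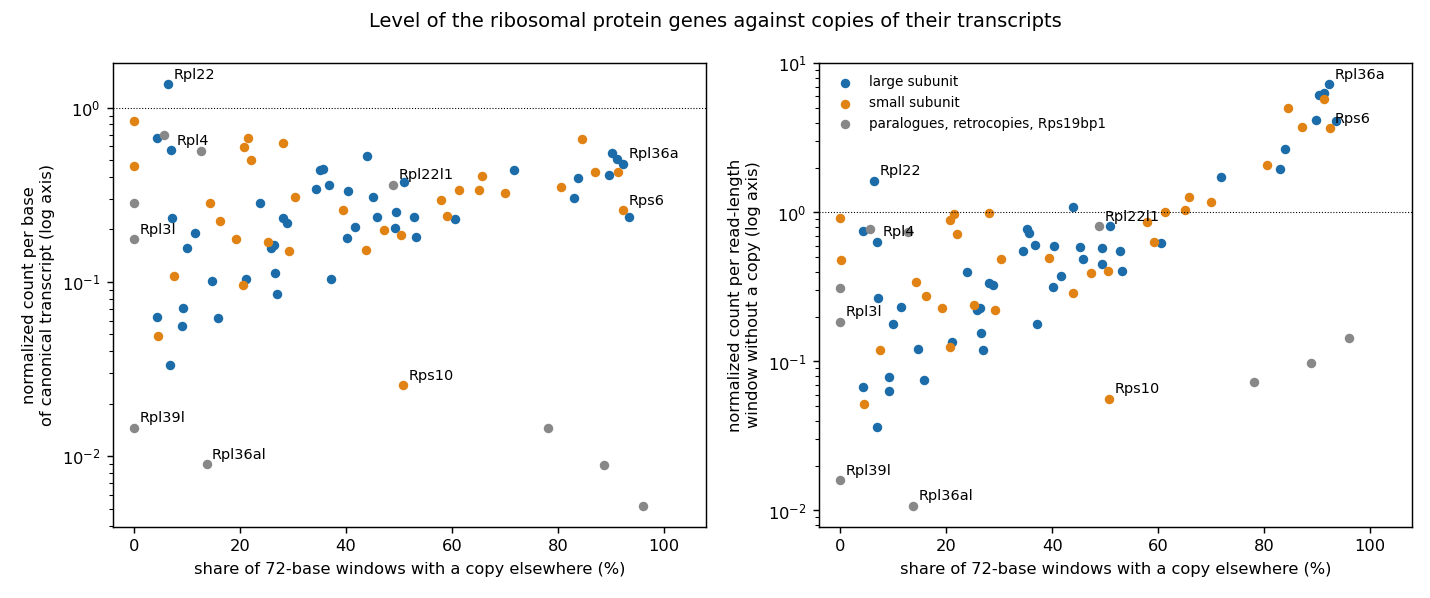
Share of 72-base windows with an exact copy elsewhere (horizontal, in percent) against the mean normalized count per base of canonical transcript (left) and per window without a copy (right, both log axes), with a point for each member, colours for subunits and a dotted line at 1. Rpl22 is the only gene above the line on the left, and 19 genes, most of them with a copied share over 50%, lie above it on the right.

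Between mice the members varied little. Their median coefficient of variation (SD over mean) was 4.82%, against 7.08% for mitochondrial ribosomal protein genes and 10.1% for all protein-coding genes. Among genes with a mean of at least 200, only Rpl3l of the 63 members exceeded 20% (27.3%), where 7.85% of all such protein-coding genes did. Without mouse 1 no member exceeded 20%. Behind Rpl3l came Rpl22 with 11.6%, Rpl27a with 10.2%, Rpl15 with 9.78% and Rps27l with 7.76%.

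For most members the variance over mice was smaller than the mean. Counting of reads alone gives a variance about equal to the mean on average, but with 3 mice single estimates often fall below it. This held for 58 of the 86 members (67.4%), against 22.4% of all protein-coding genes, 27.3% of mitochondrial ribosomal protein genes and 22% of protein-coding genes whose means lay between 122.5 and 657.25, the range of most core members. The median ratio of variance to mean was 0.648 for the members, 1.81 for the mitochondrial ribosome and 2.82 for all protein-coding genes. Pooled as summed variances over summed means, the ratio was 1.63 for the members and 1.12 without Rpl22 and Rpl3l. It was 2.33 for the mitochondrial ribosome and 9.47 for all protein-coding genes. The members as a set thus did not vary less than counting alone would give. Taking other protein-coding genes that averaged 100 or more and had 0.4 to 0.8 normalized counts per canonical base, 13.1% had a variance below the mean, compared with 14 of 21 members (66.7%). The cause of the lower variance of the members than of other genes was not tested.

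The small shifts that remained went the same way in most members. The lowest value was in mouse 3 for 72 of the 86 members (83.7%), where 32.8% of protein-coding genes had theirs. The highest value was in mouse 2 for 47 members and in mouse 1 for 33, against backgrounds of 31.5% and 33.1%. Only 2 members were highest in mouse 3, with a background of 33%. The shift was small, since the core members' level in mouse 3 was 0.931 times the mean of the other mice in the median, between -0.24 and 0.08 on the log2 scale, and 72 of the 76 were below 0. Rpl22 and Rpl3l were among 7 members with their lowest value in mouse 2. In both Rpl22 and Rpl3l the value of mouse 3 was also below the mean of the others.

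Coding length moved with this pattern. Among other protein-coding genes with a mean of at least 100, 70.0% of those with a coding length under 500 bases and 58.9% of those from 500 to 1000 bases were lowest in mouse 3, falling to 2.92% above 5000 bases. Members with these lengths were lowest in mouse 3 in 40 of 46 cases (87.0%) and 27 of 30 cases. The median log2 ratio of mouse 3 to the others was alike in members and other genes, -0.11 against -0.13 under 500 bases and -0.11 against -0.10 from 500 to 1000 bases. Over all genes with a coding length under 1000 bases, without both kinds of ribosomal protein genes, 50.5% were lowest in mouse 3, and among mitochondrial ribosomal protein genes 61 of 77 (79.2%) were.

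**Figure D3:**
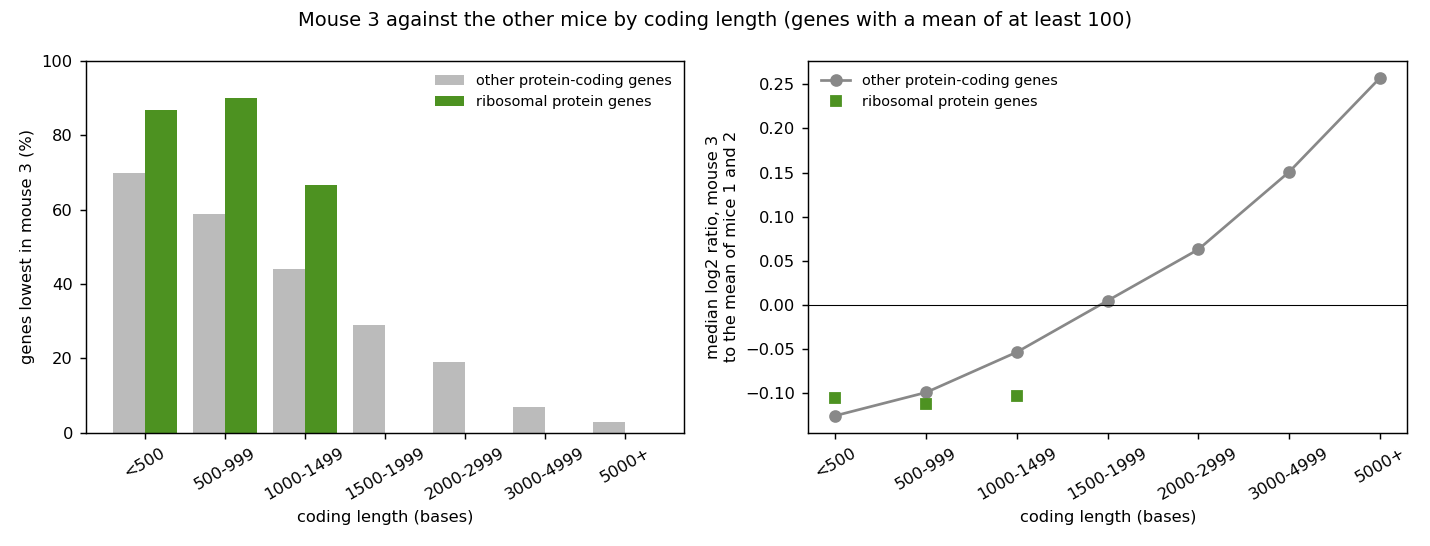
Protein-coding genes with a mean of at least 100 in classes of coding length, with the percentage lowest in mouse 3 (left) and the median log2 ratio of mouse 3 to the mean of mice 1 and 2 (right), for ribosomal protein genes (green) and other genes (grey). Both quantities change steadily with length in the other genes, the members' medians lie near those of other short genes, and the class from 1000 to 1500 bases holds only 3 members.

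The start of the messenger was compared with the TOP motif, taken as a C at the annotated start followed by at least 4 bases that are C or T. RefSeq starts (GRCm38.p6) were given for 64 of the 86 members, and 14 of them (21.9%) had the motif exactly there, against 2.82% of 11153 other protein-coding genes and 0 of 68 mitochondrial ribosomal protein genes. The 14 were Rpl14, Rpl15, Rpl28, Rpl35, Rpl35a, Rpl38, Rplp2, Rps6, Rps10, Rps15a, Rps18, Rps21, Rps27 and Rps27rt. Allowing a start up to 5 bases away gave 30 members (46.9%), against 23.5% of other genes and 25% of the mitochondrial ribosome. At the starts of GENCODE canonical transcripts 8 of 86 members (9.30%) had the motif, against 4.06% of other genes. Within 5 bases of those starts 23 members (26.7%) had it, nearer to the 20.3% of other genes and 16.9% of the mitochondrial ribosome. The counts thus depend on where annotation places the start. Only the given strand was searched.

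The 30 bases from 10 before to 20 after the start are shown for 5 genes to let the motif be seen. Capitals mark the first motif that begins within 5 bases of the start, with the C and T that follow it, and any C or T before it is in lower case. The coordinates are chr4:86857348-86857377 (minus strand) for Rps6, chr7:141447641-141447670 (plus) for Rplp2, chr3:28805498-28805527 (plus) for Rpl22l1 and chr17:24727816-24727845 (plus) for Rpl3l, all from RefSeq in GRCm38.p6. For Rpl22 the start is that of the GENCODE canonical transcript in GRCm39, chr4:152410140-152410169 (plus), since neither of its RefSeq starts, which lie elsewhere, had the motif. The start shown for Rpl22 was thus chosen for its motif. At GENCODE starts Rplp2 and Rpl22l1 had no motif within 5 bases, and Rps6 had it within 5 bases but not exactly at the start.
Rps6: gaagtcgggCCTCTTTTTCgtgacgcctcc
Rplp2: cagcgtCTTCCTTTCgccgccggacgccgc
Rpl22: ctgactCCTCCCTTTCCCgacagccgactt
Rpl22l1: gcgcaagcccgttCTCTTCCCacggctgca
Rpl3l: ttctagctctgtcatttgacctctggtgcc
Rpl3l, the member used in striated muscle, had no such motif within 5 bases of this start. This lack was not particular to Rpl3l, since only 30 of the 64 members with RefSeq starts had the motif within 5 bases. In Rpl22l1 the motif began 3 bases after the annotated start.

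Small nucleolar RNAs, which guide the modification of ribosomal RNA, lay within 29 members (33.7%), with 57 of them in all, against 1.64% of protein-coding genes and none of the 77 mitochondrial ribosomal protein genes. Rpl4 held the most among the genes described here, with 5. The members had a median of 5 exons, where protein-coding genes had 9.

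Genes that supply or control ribosomal proteins were measured as well. All 18 genes of a list of TOP control factors and ribosomal protein chaperones were listed, with a median mean of 434 normalized counts. The list included Larp1 with 974, 1028 and 1125, Mtor with 369, 390 and 485 and the Rps6 kinase gene Rps6kb1 with 793, 746 and 774. Of 20 genes for ribosome biogenesis all had a mean of at least 200, with a median of 424.3, led by Ncl (nucleolin) with 2030, 2114 and 1903. Only Myc in the first list (85, 216 and 188) and Nop58 in the second (323, 515 and 457) had a coefficient of variation over 20%, both with their lowest value in mouse 1. A coefficient this high occurred in 7.85% of protein-coding genes averaging 200 or more, a mean that Myc, with 163, did not reach. Mouse 3 held the lowest value for 6 of the 18 and 6 of the 20 genes, against 32.8% of all protein-coding genes.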

How the data were processed

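Ribosome-associated RNA from hearts of 3 EC-RiboTag mice was sequenced as 72-base single-end reads. The authors trimmed reads with Trimmomatic (0.39), aligned them with STAR (2.7.11a) to mm39, removed duplicates with Picard (3.1.1) and also multi-mapping, ribosomal and mitochondrial reads, counted exonic reads on the correct strand with featureCounts (2.0.4) and normalized with DESeq2 (1.36.0). The deposited values were treated as a score, because the authors divided counts by a size factor for each library and rounded them, so no count test was run. Depth was derived from the worth of 1 read in the pattern of low whole numbers.

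The members and gene lists were chosen with earlier results of these data known. Genes are named because the tag or paralogy, stalk, particle or disease roles, or an extreme level, spread or copied share put them on a fixed list. Some genes under this rule are not reported here. Of the 86 members all matched GENCODE M39 (GRCm39) by identifier, of the 14246 protein-coding genes 14236. Lengths are those of canonical transcripts. Every window of 72 bases of each canonical transcript was searched for exact copies on both strands of GRCm39 outside its gene. Each log2 ratio was formed inside a mouse, and its mean over mice was compared with 0 by flipping signs in all ways (exact permutation, two-sided), which allows p values no lower than 0.25 for 3 mice and 0.5 for 2. Alternatives were other lengths, other windows, pseudocounts of 1 and 5, means in place of medians, other filters and scalings, and leaving out each mouse. The procedures were tested on simulated data. Python 3.11.15, numpy 2.4.6, pandas 2.3.3, numba 0.67.0 and biopython 1.88 were used.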

Additional observations from a re-analysis of the deposited data

How the results depend on the processing

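Rpl22 stayed above the median of the other members and above Rpl22l1 under every alternative tried, with log2 differences of 1.28 to 2.76 and 1.01 to 2.10. Without division by length, Rpl22l1 against the other members changed to -0.43, the members against the mitochondrial ribosome to -0.47, the members against all protein-coding genes to -0.40 and large against small subunit genes to 0.041. Per base of coding sequence, a choice made after seeing the data, the second became -0.063 and the last 0.043. These alternatives differ from the values in the text by their divisor. The median rank of the members among protein-coding genes was 8251.5 by normalized count, 3114 per canonical base, 4669.5 per exonic base, 834 per window without a copy and 3585 per coding base. Members with a coefficient of variation over 20% numbered 1, 4 with no filter on the mean, and 0 to 1 when a mouse was left out. The copied share of the median member was 42.6% with windows of 50 bases. The TOP count was 14 at the RefSeq start and 30 within 5 bases of it, and 8 at GENCODE starts and 23 within 5 bases of them. With trimmed-mean scaling 75 members, and with equal totals 77 members, were lowest in mouse 3, against 72. Leaving out a mouse gave 2.42 to 2.56 for Rpl22 against the other members, 0.56 to 0.57 for Rpl22l1, 1.85 to 1.99 between both genes, 0.44 to 0.53 against the mitochondrial ribosome, 1.20 to 1.29 against all genes and -0.37 to -0.34 for large against small subunit genes. No paired analysis was possible because the mice form a single group. With 3 mice no p can fall below 0.25, so these tests say nothing about stability.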
